A study of Mus musculus with 4 samples.

Results

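The genes described here encode 10 transcription factors with roles in the formation of fat, bone or cartilage from mesenchymal progenitors: Cebpb, Cebpd, Pparg, Cebpa, Runx1, Runx2, Sp7, Dlx5, Msx1 and Sox9. The genes were chosen with earlier results of these data known. They were taken by name, as rows of the deposited expression table annotated with that gene symbol alone. Of the 10 genes, 9 had such a row, each with a single probe set, out of 19938 genes measured. Runx2 was not analysed here. The cells were AdmMABs, which are mesoangioblasts of adult mice (myogenic progenitors found along vessels), grown from the tibialis anterior muscle of male C57/BL6 mice as a polyclonal population and kept proliferating. One population was transduced with a lentiviral vector carrying a short hairpin RNA against PW1, the product of Peg3 (shPW1, 2 arrays), and the other with a control hairpin vector, described in the labels as a scrambled sequence that matches no mouse gene (Ctl, 2 arrays). Each array held 1 RNA extraction of 1 transduced population, so the spread behind each p-value is that of repeated extractions and may be technical. The knockdown rested on 1 hairpin, which was cloned in pLV-H1. The methods name a control hairpin in pLKO.1 without saying whether the array cells carried it, and the vector and the loss of PW1 cannot be told apart.

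Mesoangioblasts are mesodermal cells, and related muscle-resident progenitors can become adipocytes, osteoblasts or chondrocytes in culture. In fat formation, C/EBPbeta and C/EBPdelta (Cebpb, Cebpd) are induced first and switch on PPARgamma (Pparg) and C/EBPalpha (Cebpa), which then maintain each other and activate the genes of the fat cell. In bone formation Runx2 and its target osterix (Sp7) act in sequence, and the homeodomain factors Dlx5 and Msx1 act around them, while Sox9 directs cartilage formation. The comparison asked whether these regulators differed between shPW1 and Ctl AdmMABs in growth conditions.

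Values are log2 expression after normalization by the authors, so a difference of 1 is a doubling. Peg3 was at 6.22 and 6.47 in the shPW1 arrays, against 8.67 and 8.70 in the Ctl arrays. Over all probe sets tested, the SD of the difference was 0.17 between the shPW1 arrays and 0.15 between the Ctl arrays, against 0.27 to 0.29 for pairs of a shPW1 and a Ctl array. A gene was called when its adjusted p from limma was under 0.05. By this rule 4.93% of the 19938 genes were called higher and 4.35% lower in shPW1. Over the 21789 probe sets tested these shares were 4.93% and 4.17% (9.10% in either direction), so that 54.2% of the calls were higher, or 68.2% once the median of each array was subtracted. Of 7 measured mesoangioblast and pericyte markers 5 were called lower, with summed log2 levels of 60.6 in both shPW1 arrays and of 62.8 and 63.0 in the Ctl arrays. These were the proteoglycan Cspg4 (log2 fold change -0.66), desmin (Des, -0.55), the receptors Pdgfrb (-0.45) and Pdgfra (-0.38) and the adhesion molecule Mcam (-0.35), while Acta2 (0.16) and Alpl (-0.09) did not pass. Myod1, a muscle determination factor, fell by 1.72 on the log2 scale, while Myf5, which acts with it, was at 9.04 and 9.01 in the shPW1 arrays, against 8.92 and 8.84 in the Ctl arrays, and was not called (log2 fold change 0.15). By quantitative PCR, the paper reported MyoD transcripts in both Ctl and shPW1 cells, rising in differentiation whatever the hairpin, and a marked fall of MyoD protein. The part of these array differences in the results below was not tested. In such bulk samples fewer cells of a type and less RNA per cell cannot be told apart. No leukocyte marker of 13 and no endothelial marker of 14 was called by limma (1 and 0 at an unadjusted p under 0.05, and 0 of either by the methods' analysis of variance).

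Of the 9 measured regulators, 2 rose, 2 fell and 5 did not pass the test. The genes that rose were Cebpb and Cebpd, and those that fell were Pparg and Cebpa, so every call fell among the adipogenic factors. The share called was 44.4%, against 9.28% of all genes, for regulators chosen with earlier results of these data known. The shPW1 and Ctl arrays did not overlap for 8 of the 9 genes, as for 55.5% of all genes, with 4 higher and 4 lower in shPW1. A filter that keeps genes above the median of the table (5.44 as a mean over the 4 arrays) was passed by 6 of the 9, and Cebpd, Sp7 and Dlx5 lay below it. With any 1 array left out (shPW1 replicate 1 or 2, or Ctl replicate 1 or 2) none of the 4 called genes passed the adjusted threshold, with adjusted p values of 0.109 to 0.211 and all 4 at an unadjusted p under 0.05, while each kept its direction. With the replicate number as a block only Cebpb passed (adjusted p = 0.0456).

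**Figure D1:**
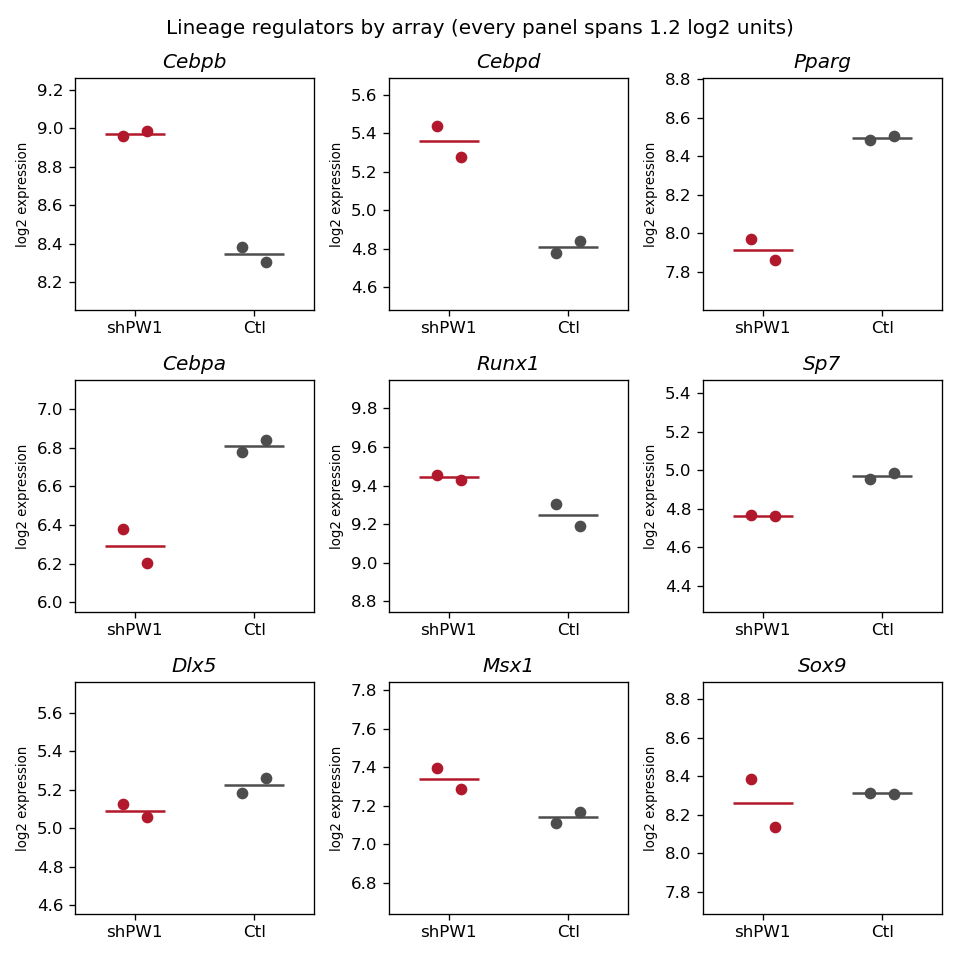
Log2 expression (vertical axes, each spanning the same range of log2 units) of the 9 measured lineage regulators in the shPW1 arrays (red) and the Ctl arrays (grey); each point is 1 array and each line is the mean of a group. The groups lie apart for 8 genes, and for Sox9 the shPW1 arrays, at 8.39 and 8.14, lie on both sides of the Ctl arrays.

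Cebpb (chr2:167688915-167690432 on GRCm38.p6 in RefSeq, the source of all positions given), the early adipogenic factor that also drives cytokine and acute phase genes, was higher in shPW1. Its log2 expression was 8.96 and 8.98 in the shPW1 arrays, against 8.38 and 8.30 in the Ctl arrays. The groups were far apart beside the gaps within them, 0.03 between the shPW1 arrays and 0.08 between the Ctl arrays. Cebpb rose by 0.63 on the log2 scale (standard error 0.06, 95% confidence interval 0.46 to 0.79, adjusted p = 0.0137), or 1.54-fold, and ranked 223rd among the rises of 19938 genes.

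Cebpd (chr16:15887286-15889545), induced together with Cebpb at the start of adipogenesis and in the acute phase response, was higher as well. It stood at 5.44 and 5.28 in the shPW1 arrays, against 4.78 and 4.84 in the Ctl arrays. Both shPW1 arrays were above both Ctl arrays, with a wider gap between the shPW1 arrays (0.16) than between the Ctl arrays (0.06). The rise was 0.55 on the log2 scale (standard error 0.08, 95% confidence interval 0.34 to 0.76, adjusted p = 0.0283), or 1.46-fold. Its mean over all arrays was below the median of the table, so Cebpd was the 1 called regulator that a filter on dim probe sets removed.

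Pparg (chr6:115360879-115490404), the nuclear receptor required for fat cell formation, moved the other way. Its log2 expression was 7.97 and 7.86 in the shPW1 arrays, against 8.48 and 8.50 in the Ctl arrays. The Ctl arrays lay within 0.02 of each other and both shPW1 arrays were below them. Pparg fell by 0.58 on the log2 scale (standard error 0.07, 95% confidence interval -0.75 to -0.40, adjusted p = 0.019), to 0.67 of the Ctl level, and ranked 328th among the falls.

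Cebpa (chr7:35119293-35121928), the partner that sustains PPARgamma in fat cells, fell by a similar amount. It was at 6.38 and 6.20 in the shPW1 arrays, against 6.78 and 6.84 in the Ctl arrays. Here the shPW1 arrays differed by 0.18, the widest gap within a group among the 4 called regulators, and both were below both Ctl arrays. The log2 fold change was -0.52 (standard error 0.08, 95% confidence interval -0.74 to -0.30, adjusted p = 0.0337), or 0.698 of the Ctl level. Of the 4 called regulators it moved most when 1 array was left out, to -0.61 when shPW1 replicate 1 was left out and to -0.43 when shPW1 replicate 2 was.

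**Figure D2:**
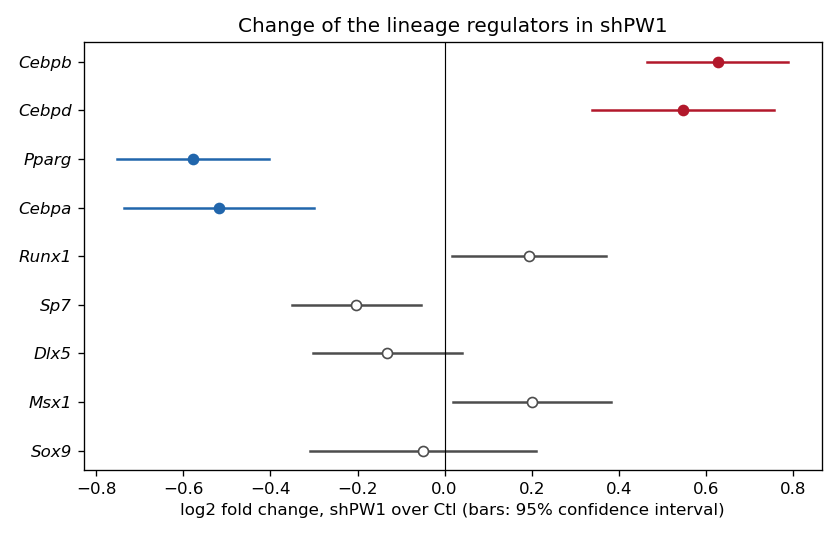
Log2 fold change of shPW1 over Ctl (horizontal axis) for each measured regulator, with its 95% confidence interval as a bar; filled points passed the test (red higher, blue lower) and open points did not. Cebpb (0.63) and Cebpd (0.55) lie to the right of 0 and Pparg (-0.58) and Cebpa (-0.52) to the left, while the 5 skeletal and cartilage factors lie between -0.20 and 0.20.

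Because Cebpa and Pparg are known targets of the C/EBP proteins, the DNA just before their annotated starts is shown with that of Cebpb. The sequences are those of RefSeq on GRCm38.p6, the plus strand in the direction of transcription, and cover the 250 bases before the start, with capitals marking matches to TTNNGCAA (a core of the C/EBP site) or TATAAA on either strand. The reference table held windows for 6 of the 10 genes, 9 windows in all. The motifs were chosen with the expression results known.
Cebpb, chr2:167688665-167688914: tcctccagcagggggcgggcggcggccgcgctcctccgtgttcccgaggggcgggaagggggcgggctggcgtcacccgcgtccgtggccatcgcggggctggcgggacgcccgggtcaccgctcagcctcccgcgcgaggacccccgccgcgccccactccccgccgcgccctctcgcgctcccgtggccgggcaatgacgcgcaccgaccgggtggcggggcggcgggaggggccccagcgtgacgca
Cebpa, chr7:35119043-35119292: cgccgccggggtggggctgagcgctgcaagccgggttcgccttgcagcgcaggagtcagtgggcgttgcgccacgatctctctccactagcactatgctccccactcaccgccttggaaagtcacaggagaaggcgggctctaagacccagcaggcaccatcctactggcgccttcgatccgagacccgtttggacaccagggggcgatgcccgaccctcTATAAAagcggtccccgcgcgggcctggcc
Pparg, most downstream start, chr6:115421816-115422065: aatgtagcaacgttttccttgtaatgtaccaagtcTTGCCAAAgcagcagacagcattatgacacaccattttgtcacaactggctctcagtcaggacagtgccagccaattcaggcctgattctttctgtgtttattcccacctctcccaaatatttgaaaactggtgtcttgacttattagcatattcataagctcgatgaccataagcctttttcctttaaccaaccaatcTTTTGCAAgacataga
The Pparg window, before the start known for the fat cell isoform PPARgamma2, held 2 matches to TTNNGCAA, which began 215 and 16 bases before the start. The Cebpa and Cebpb windows held none, and neither did the windows of the other 2 annotated Pparg starts, while that of Runx2, the 1 other window with a match, held it 48 bases before the start. Such a match occurred in 9.56% of 32851 windows of the same length. The Cebpa window held TATAAA, beginning 30 bases before the start, and the window of another Pparg start held it on the opposite strand, against 12.4% of all windows on either strand. Only exact matches were counted, so a C/EBP site with other letters would be missed, in the Cebpa and Cebpb windows as in the rest. These matches describe the letters only, and the probe set of Pparg does not separate its starts.

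None of the 5 measured skeletal and cartilage regulators passed the test. Runx1 (chr16:92601466-92826074), a Runt factor best known in blood formation and also active in mesenchymal progenitors, was at 9.45 and 9.43 in the shPW1 arrays, against 9.31 and 9.19 in the Ctl arrays. Its log2 fold change was 0.19 (95% confidence interval 0.02 to 0.37, adjusted p = 0.155), and it was called with a trended and robust prior (adjusted p = 0.0162). The arrays did not overlap, but the gap between the Ctl arrays (0.11) was close to that between the groups.

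Sp7 (chr15:102356603-102367035), the osteoblast factor osterix, was at 4.77 and 4.76 in the shPW1 arrays, against 4.95 and 4.98 in the Ctl arrays (log2 fold change -0.20, 95% confidence interval -0.35 to -0.05, adjusted p = 0.102). Dlx5 (chr6:6877801-6882068), a homeodomain factor that acts upstream in bone formation, was at 5.13 and 5.06 in the shPW1 arrays, against 5.18 and 5.26 in the Ctl arrays (log2 fold change -0.13, 95% confidence interval -0.30 to 0.04, adjusted p = 0.281). Both genes were below the median of the table in all arrays, and for both the shPW1 arrays were the lower ones. Msx1 (chr5:37820491-37824585), a homeodomain factor of undifferentiated mesenchyme, was at 7.39 and 7.29 in the shPW1 arrays, against 7.11 and 7.17 in the Ctl arrays (log2 fold change 0.20, 95% confidence interval 0.02 to 0.38, adjusted p = 0.151).

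Sox9 (chr11:112782210-112787757), the cartilage factor, was the 1 regulator whose arrays overlapped. It was at 8.39 and 8.14 in the shPW1 arrays, against 8.32 and 8.31 in the Ctl arrays. The shPW1 arrays differed by 0.25, the widest gap among the 9 genes. The log2 fold change of -0.05 (95% confidence interval -0.31 to 0.21, adjusted p = 0.804) turned to 0.01 when array medians were subtracted, and was -0.17 when shPW1 replicate 1 was left out and 0.076 when shPW1 replicate 2 was. For these 5 genes the confidence bound farthest from 0 was 0.38 for Msx1, 0.37 for Runx1, -0.35 for Sp7, -0.31 for Sox9 and -0.30 for Dlx5.

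Other genes of the same pathways were taken from 6 lists, written from general knowledge with earlier results of these data known. Of 222 measured genes in these lists, 17 rose, 25 fell and 180 did not pass the test, a share called of 18.9% against 9.28% of all genes. Their median log2 fold change was -0.04, against -0.01 over all genes. By list, the share called was 27.0% for adipocyte markers, 25.7% for osteoblast and bone matrix genes and 20.5% for regulators of adipogenesis. It was 16.7% for regulators of osteoblasts, 16% for relatives and partners of the regulators and 7.69% for cartilage regulators and markers.

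Among relatives and partners of the regulators, 3 of 25 genes rose and 1 fell (median log2 fold change -0.01). Trib1, a pseudokinase that targets C/EBPalpha for degradation, had the largest rise of the list, 0.59 on the log2 scale (adjusted p = 0.0153), with 7.88 in shPW1 and 7.28 in Ctl on average. Ddit3 (CHOP), which binds C/EBP proteins and blocks them from their usual sites, was at 7.04 and 6.99 in the shPW1 arrays, against 6.67 and 6.72 in the Ctl arrays (log2 fold change 0.32, adjusted p = 0.0443). The homeodomain factor Dlx1 rose by 0.34 (adjusted p = 0.041), and the zinc finger factor Sp8 fell by 0.32 (adjusted p = 0.044), a call lost when array medians were subtracted or the arrays were quantile normalized again. Cebpg had a log2 fold change of 0.03 (95% confidence interval -0.12 to 0.18, adjusted p = 0.797). Ppard, which encodes the related receptor PPARdelta, had one of 0.21 (-0.02 to 0.44, adjusted p = 0.215). Runx3 had 0.07 (-0.09 to 0.24, adjusted p = 0.524), Cbfb, the shared partner of Runx proteins, -0.02 (-0.17 to 0.13, adjusted p = 0.862), and Msx2 0.04 (-0.15 to 0.24, adjusted p = 0.757).

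Of 44 measured regulators of adipogenesis, 3 rose, 6 fell and 35 did not pass the test (median log2 fold change -0.03). Fgf10, a growth factor for fat precursors, rose by 1.17 on the log2 scale (adjusted p = 0.00994), with 5.48 in shPW1 and 4.31 in Ctl on average. Bmp4, which can commit progenitors to the fat lineage, rose by 0.86 (adjusted p = 0.00742), and Klf5, a zinc finger factor that activates Pparg, rose by 0.50 (adjusted p = 0.022). Wnt10b, a Wnt ligand that holds back adipogenesis, fell by 0.99 (adjusted p = 0.00676), with 6.65 in shPW1 and 7.64 in Ctl. Zfp521, also an inhibitor of adipogenesis, fell by 0.76 (adjusted p = 0.0173), and Srebf1, a factor that activates lipid synthesis genes, fell by 0.53 (adjusted p = 0.0186). The other 3 genes called lower were Tcf7l1 (log2 fold change -0.47), a factor of the Wnt pathway, and Stat5a (-0.42) and Ebf1 (-0.35), both known to promote adipogenesis. Of the called genes of this list, Fgf10 and Zfp521 lay below the median of the table as means over all arrays.

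Of 37 measured adipocyte markers, 3 rose, 7 fell and 27 did not pass the test (median log2 fold change -0.04). The lower genes with the largest changes were the desaturase Scd1 (log2 fold change -0.96, adjusted p = 0.00674), the lipase inhibitor G0s2 (-0.90, adjusted p = 0.00859) and the acyltransferase Agpat2 (-0.45, adjusted p = 0.0431), which serve lipid synthesis and storage in many cell types. Angptl4, a secreted inhibitor of lipoprotein lipase, rose by 0.65 (adjusted p = 0.0202), the acute phase protein Orm1 by 0.55 (adjusted p = 0.0378) and the lipid droplet protein Plin2 by 0.33 (adjusted p = 0.0378). Orm1 has close paralogs with which its probes may share signal, and its mean over all arrays lay below the median of the table. The defining fat cell genes did not pass the test. Fabp4, a fatty acid carrier, was at 4.51 and 4.54 in the shPW1 arrays, against 4.26 and 4.46 in the Ctl arrays (adjusted p = 0.3). Adipoq, the hormone adiponectin, was at 3.45 and 3.62 in shPW1, against 3.42 and 3.47 in Ctl (adjusted p = 0.568), and Plin1, the lipid droplet coat protein of fat cells, at 5.20 and 5.13 in shPW1, against 5.12 and 5.24 in Ctl (adjusted p = 0.916). All 3 genes lay below the median of the table in every array.

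**Figure D3:**
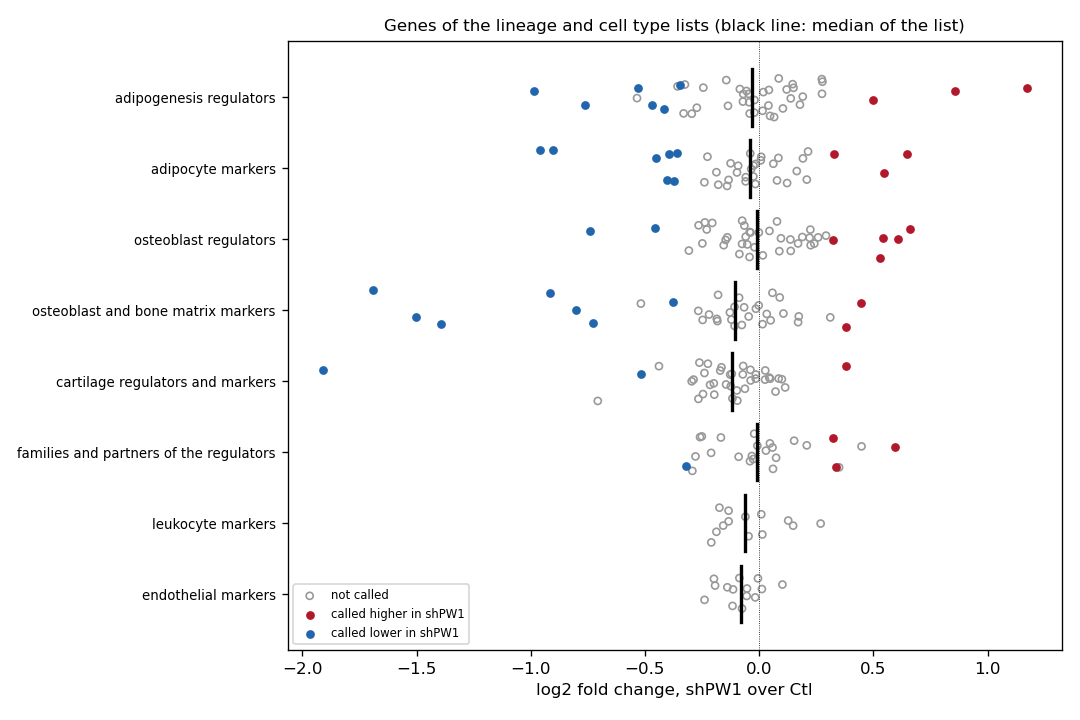
Log2 fold change of shPW1 over Ctl (horizontal axis) for each measured gene of the 6 lineage lists and of the leukocyte and endothelial lists (rows); each point is 1 gene, red where called higher, blue where called lower and open where not called, and the black lines are list medians. Calls lie on both sides in the lineage lists, from Fmod at -1.91 to Fgf10 at 1.17, and no leukocyte or endothelial marker was called.

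Of 42 measured regulators of osteoblasts, 5 rose, 2 fell and 35 did not pass the test (median log2 fold change -0.01). The BMP antagonist Grem1 rose by 0.66 (adjusted p = 0.0111), with 10.5 in shPW1 and 9.79 in Ctl on average, the inhibitory Smad7 by 0.61 (adjusted p = 0.016) and the AP-1 subunit Fosl2 by 0.54 (adjusted p = 0.0179). Zfhx4, a zinc finger homeodomain factor, fell by 0.74 (adjusted p = 0.0163) and the histone deacetylase Hdac5 fell by 0.45 (adjusted p = 0.044). Of 35 measured osteoblast and bone matrix genes, 2 rose and 7 fell (median log2 fold change -0.11). Those with the largest falls are matrix genes also made by fibroblasts and smooth muscle. Cthrc1, a secreted collagen-repeat protein, was at 8.18 in shPW1 and 9.87 in Ctl on average (log2 fold change -1.69, adjusted p = 0.00383). The proteoglycan Ogn (log2 fold change -1.50, adjusted p = 0.00647) was lower, and Mgp, an inhibitor of calcification, fell by 1.39 (adjusted p = 0.0137). The gap junction protein Gja1 rose by 0.45 (adjusted p = 0.0228) and the phosphate transporter Slc20a1 by 0.38 (adjusted p = 0.0349). The related transporter Slc20a2 was called lower (log2 fold change -0.73, adjusted p = 0.00914). The bone markers Alpl, which encodes tissue alkaline phosphatase and also marks mesoangioblasts, and Ibsp, a bone matrix sialoprotein, did not pass. Bglap, a further bone marker, had no row annotated with its symbol alone and was not analysed here. Alpl was at 5.79 and 5.73 in the shPW1 arrays, against 5.75 and 5.95 in the Ctl arrays (adjusted p = 0.592), and Ibsp at 3.85 and 3.87 in shPW1, against 3.80 and 3.74 in Ctl (adjusted p = 0.412).

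Of 39 measured cartilage regulators and markers, 1 rose and 2 fell, a share called of 7.69%, near that of all genes (median log2 fold change -0.12). The proteoglycan Fmod, found in many connective tissues, was at 5.97 in shPW1 and 7.88 in Ctl on average (log2 fold change -1.91, adjusted p = 0.0125), and its relative Prelp fell by 0.52 (adjusted p = 0.0245). The mean of Prelp over all arrays lay below the median of the table. The matricellular protein Ccn2 rose by 0.38 (adjusted p = 0.0337). The direct Sox9 targets Col2a1 and Acan did not pass the test. Col2a1, the collagen of cartilage, was at 7.35 and 7.05 in the shPW1 arrays, against 7.50 and 7.43 in the Ctl arrays (adjusted p = 0.221), and aggrecan (Acan) at 4.88 and 4.64 in shPW1, against 4.71 and 4.72 in Ctl (adjusted p = 0.816).

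**Figure D4:**
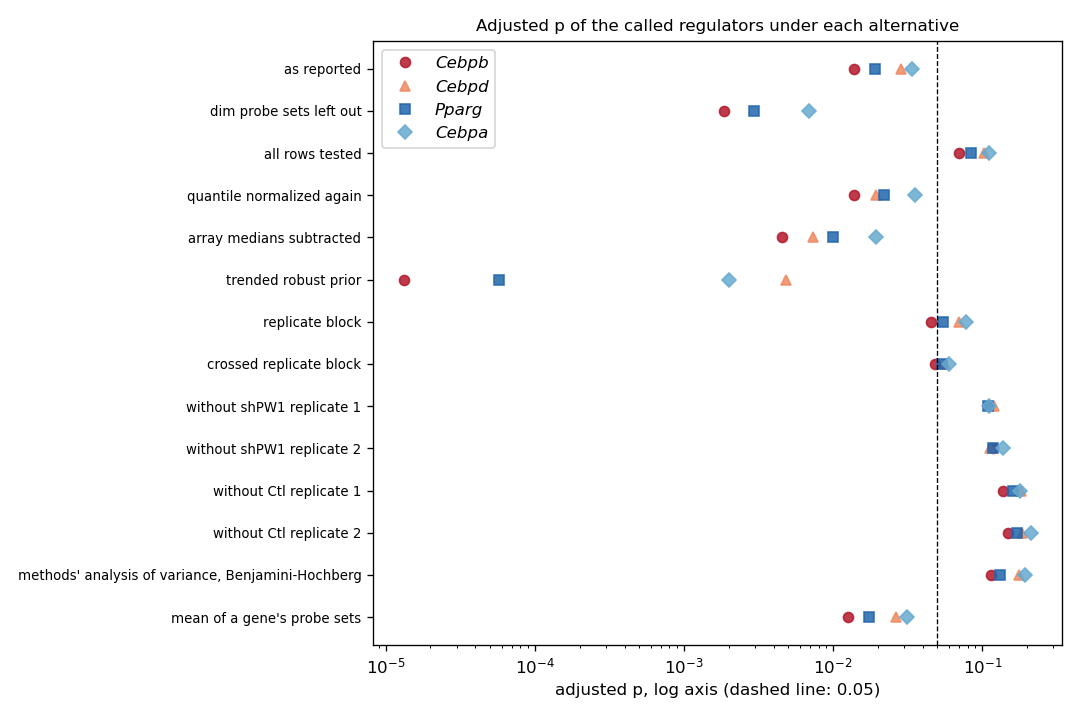
Adjusted p (horizontal log axis, dashed line at 0.05) of the 4 called regulators as reported and under each alternative that gives an adjusted p (rows). All lie left of the line as reported, and all lie right of it with any 1 array left out (0.109 to 0.211) and when all rows were tested (0.0697 to 0.112); Cebpd has no value once dim probe sets are left out.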

How the data were processed

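Growing shPW1 and Ctl AdmMABs were profiled on Affymetrix Mouse Gene 1.0 ST arrays (2 RNA extractions per group). The authors deposited log2 expression values, made by RMA in Partek (version 6.4 in the submitters' processing notes), so background correction, normalization and summarization were not repeated. Of 35556 rows, 21789 had exactly 1 gene symbol and were tested, 1621 had several and 12146 had none. Symbols were updated through RefSeq for 21698. The 2 groups were fitted in limma 3.58.1 (lmFit, then eBayes; R 4.3.3; 2 residual and 2.72 prior degrees of freedom), two-sided, with Benjamini-Hochberg adjustment over all probe sets tested. Genes were counted by their brightest probe set. The regulators and lists were chosen with earlier results of these data known. Genes named from a list were its called genes with the largest changes, up to 3 higher and 3 lower. Defining markers and relatives with a row of exactly 1 gene symbol were named whatever their value, and of these Bglap had no such row. Tcf7l1, Stat5a, Ebf1 and Slc20a2 were named after their values were seen. The fit was checked on simulated arrays with known changes, and the condition set was on the recovered fold changes, not on the calls. As alternatives, each array was left out, dim probe sets were dropped, every row was tested, arrays were quantile normalized again or centred on their medians, a gene's probe sets were averaged, the prior was trended and robust, replicate numbers served as a block, and the methods' analysis of variance was run (p under 0.05, fold change over 1.2). No detection calls were available, and the number of arrays limits the precision.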

Additional observations from a re-analysis of the deposited data

How the results depend on the processing

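The counts of called regulators (2 higher and 2 lower) were unchanged when arrays were quantile normalized again or centred on their medians, under the mean of a gene's probe sets and the unadjusted analysis of variance of the methods, and the trended robust prior gave 3 higher and 2 lower. They changed as follows under the other settings, and the cause was not tested except where fewer arrays or fewer or more tested rows are the setting itself. Without dim probe sets 1 regulator was higher, since Cebpd was not tested, while among the genes of the lineage lists 26 were higher and 43 lower, and among all probe sets 2240 and 1784. With all rows tested 0 regulators were higher and 0 lower (all 4 at an unadjusted p under 0.05 by limma), with 0 and 1 list genes and 36 and 50 probe sets. The trended robust prior gave 31 and 40 list genes and 2735 and 1978 probe sets, and subtraction of array medians gave 1627 higher and 759 lower probe sets. The analysis of variance after Benjamini-Hochberg adjustment called 0 regulators and 0 list genes, and 1 probe set higher and 1 lower. Same-numbered arrays did not deviate together (correlation of deviations -0.11 over probe sets). The sample titles give a replicate number only, and this correlation cannot decide whether same-numbered arrays were handled together. With the replicate number as a block 1 regulator was higher and 0 lower, with 5 and 12 list genes and 256 and 258 probe sets. With the numbers crossed, a pairing added after the data were seen, the counts were 1 and 0 regulators, 4 and 10 list genes and 213 and 224 probe sets. Without any 1 array all of these counts were 0 to 0, in both directions.

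Neither the 4 called regulators nor the 30 other called genes for which the alternatives were run turned direction under any of them. Those 30 were Peg3 and the called genes named from the lineage lists, other than Tcf7l1, Stat5a, Ebf1 and Slc20a2. The pericyte and myogenic markers and the genes most like Cebpb were not run. Of genes short of the threshold, the log2 fold change of Sox9 turned to 0.01 (0.00875) with array medians subtracted and ran from -0.17 to 0.076 with 1 array left out. That of Plin1 turned to 0.04 (0.0416) with medians subtracted and to 0.03 (0.0274) with quantile normalization, and ran from -0.076 to 0.043 with 1 array left out. Cbfb turned to 0.04 (0.0377) with medians subtracted and Cebpg to -0.0023 with quantile normalization. With 1 array left out Adipoq ran from -0.00015 to 0.17, Alpl from -0.19 to 0.014, Acan from -0.072 to 0.16 and Msx2 from -0.026 to 0.12. With an array left out, the lone array of its group was assumed to vary like the pair of the other group.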

Other observations

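Over the 4 arrays, each gene centred on its mean in Ctl, the genes closest to Cebpb, the regulator with the largest change, were Ston1, Plagl2 and Sppl2b, with root mean square differences of 0.0083, 0.011 and 0.015 on the log2 scale. Ston1 was at 7.68 and 7.70 in the shPW1 arrays, against 7.10 and 7.04 in the Ctl arrays. Plagl2 was at 7.41 and 7.42 in shPW1, against 6.82 and 6.77 in Ctl, and Sppl2b at 9.66 and 9.67 in shPW1, against 9.08 and 9.03 in Ctl. These 3 genes were picked from 19938 for that likeness over 4 arrays, so it is a description only.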
